A study of Homo sapiens with 6 samples.

Results

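The protein-coding genes for the ribosomal proteins of human mitochondria were followed in SW480, a line established from a human colorectal cancer, after ITGB4 had been targeted with siRNA. Members were taken by name and biotype: every protein-coding gene whose symbol is MRPL or MRPS followed by a digit. This gave 78 of the 58735 genes measured, 49 of them with a large subunit symbol (MRPL) and 29 with a small subunit symbol (MRPS). A filter for a mean of at least 1 FPKM over the 6 libraries kept 77 of the 78 for testing, among 12871 tested genes. The exception was MRPS24. FPKM gives the fragments of a gene per kilobase, on a scale set for each library.

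Mitochondria carry their own ribosome, which reads the few messenger RNAs of the mitochondrial genome and makes core subunits of the respiratory chain and of ATP synthase. Its ribosomal RNAs are encoded in the mitochondrial genome, while its proteins are encoded in the nucleus, made in the cytosol and imported. Part of these proteins have counterparts in bacterial ribosomes, and the others are particular to mitochondria. ITGB4 encodes integrin beta 4, a receptor that anchors epithelial cells to laminin.

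SW480 cells that received ITGB4 siRNA (3 libraries) were set against SW480 cells that received negative control siRNA (3 libraries). The labels give the genotype of all 6 libraries as WT, and the series calls the libraries of a group biological replicates. No siRNA sequence, dose or time after transfection is given in the sources used here, and 1 cell line was used. Messenger RNA was captured on poly-T beads. Since it is not stated whether replicates came from separate cultures, the p-values measure the spread between these libraries.

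The libraries held 13715266, 15256686 and 15496274 reads on genes after ITGB4 siRNA and 14793429, 14833293 and 15186046 after control siRNA. ITGB4 itself (chr17:75721328-75757818) had 41.1, 38.1 and 37.9 FPKM after ITGB4 siRNA, against 74.3, 63.8 and 69.8 FPKM after control siRNA. The groups did not overlap, and the mean of 39.0 ± 1.80 FPKM after ITGB4 siRNA was 43.7% below the 69.3 ± 5.26 FPKM after control siRNA (SD, n = 3 each). On the log2(FPKM + 1) scale ITGB4 fell by 0.81 (SE 0.0658, limma adjusted p = 0.0148), so the depletion was partial. This call was lost when ITGB4 siRNA replicate 1 (limma adjusted p = 0.0709), 2 (0.137) or 3 (0.0968) or control siRNA replicate 3 (0.0996) was left out, with the log2 fold change between -0.85 and -0.79. It was kept without control siRNA replicate 1 (-0.76, limma adjusted p = 0.0309) or 2 (-0.87, limma adjusted p = 0.0416). The epithelial markers EPCAM, KRT8, KRT18, CDH1 and CDX2 were present, while KRT20 and VIL1 were under 1 FPKM. All 14 markers of fibroblasts, endothelium and leukocytes averaged under 1 FPKM, 5 of them (DCN, LUM, COL1A2, KDR, CDH5) were listed at 0 in every library, and their summed level was 1.74 to 1.82 FPKM after ITGB4 siRNA and 1.55 to 2.39 FPKM after control siRNA.

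Nuclear genes for mitochondrial proteins are known to be driven in part through sites for NRF1, for GABP, a factor of the ETS family, and for YY1. The 300 bases around the start of each gene (250 before and 50 after, RefSeq, GRCh38.p14) were therefore searched on both strands for GCGCANGCG (NRF1-type), CCGGAAG (ETS-type) and AANATGGCG (YY1-type), where N is any base and none of the words contains another. A RefSeq promoter matched 69 of the 78 members. The ETS-type word was in 30 of these (43.5%), against 23.7% of 8754 promoters of tested genes and 12.2% of all 27305 promoters. The YY1-type word was in 18 (26.1%), against 8.75% of promoters of tested genes and 3.85% of all promoters. The NRF1-type word was in 14 (20.3%), against 18.0% and 9.02%. At least 1 of the words was in 50 member promoters (72.5%), against 42.3% of promoters of tested genes and 21.5% of all promoters, and 12 members held 2 kinds. A match is a description of the letters and not a bound site.

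The following 4 promoters are shown because they belong to the member with the highest level (MRPS34), the member with the lowest level (MRPS24), a highly expressed large subunit gene that holds NRF1-type and YY1-type words (MRPL37) and the member with the smallest p-value in the siRNA comparison (MRPL58). They lie at chr16:1773085-1773384 (minus strand), chr7:43869468-43869767 (minus strand), chr1:54199917-54200216 (plus strand) and chr17:75012420-75012719 (plus strand) of GRCh38.p14. Each is written from 5′ to 3′ on the gene's strand, and capitals mark the motif words on either strand.
MRPS34: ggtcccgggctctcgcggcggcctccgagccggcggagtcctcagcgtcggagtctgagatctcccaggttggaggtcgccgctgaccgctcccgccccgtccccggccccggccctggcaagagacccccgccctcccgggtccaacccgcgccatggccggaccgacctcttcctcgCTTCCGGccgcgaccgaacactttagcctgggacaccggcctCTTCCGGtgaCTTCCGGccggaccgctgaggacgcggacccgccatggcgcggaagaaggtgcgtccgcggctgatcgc
MRPS24: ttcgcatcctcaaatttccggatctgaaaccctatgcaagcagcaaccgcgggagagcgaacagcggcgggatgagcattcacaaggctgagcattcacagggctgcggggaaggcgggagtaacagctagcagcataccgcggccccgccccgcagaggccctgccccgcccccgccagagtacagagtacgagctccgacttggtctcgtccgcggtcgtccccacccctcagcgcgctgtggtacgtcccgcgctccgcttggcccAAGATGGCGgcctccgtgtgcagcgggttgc
MRPL37: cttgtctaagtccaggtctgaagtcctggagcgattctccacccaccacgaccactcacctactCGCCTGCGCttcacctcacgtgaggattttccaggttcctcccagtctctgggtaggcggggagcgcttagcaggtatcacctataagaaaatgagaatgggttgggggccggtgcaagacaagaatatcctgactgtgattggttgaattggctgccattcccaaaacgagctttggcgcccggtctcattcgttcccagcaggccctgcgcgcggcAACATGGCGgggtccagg
MRPL58: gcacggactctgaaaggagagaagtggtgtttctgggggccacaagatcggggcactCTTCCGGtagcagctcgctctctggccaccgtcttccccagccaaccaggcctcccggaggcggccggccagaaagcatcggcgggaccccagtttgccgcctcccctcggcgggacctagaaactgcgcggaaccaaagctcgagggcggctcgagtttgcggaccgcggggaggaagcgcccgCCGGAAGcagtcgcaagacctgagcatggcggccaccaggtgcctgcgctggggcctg
The MRPS34 promoter held 3 copies of the ETS-type word, all on the opposite strand, and the MRPL58 promoter held 2, 1 on each strand. The single YY1-type word of MRPS24 lies just after the start and includes an ATG. MRPL37 held 1 NRF1-type and 1 YY1-type word. Among tested members with a matched promoter, levels with and without a word are given as a description. Those with the YY1-type word (n = 17) had a median of 12.1 FPKM, against 25.4 FPKM without it (n = 51), and those with the NRF1-type word (n = 14) 27.9 FPKM, against 17.3 FPKM without it (n = 54). For the ETS-type word the medians were 17.9 FPKM with it (n = 30) and 26.1 FPKM without it (n = 38). The median log2 fold change lay between -0.0062 and 0.013 in all 6 of these classes.

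Levels of the members spanned more than 2 orders of magnitude in FPKM, which is per gene length. That length covers all annotated exons of a gene, so the order of members also depends on the annotation. MRPL42, with 16393 exon bases of which 592 are coding, had 714 to 1059 reads a library and averaged 3.65 FPKM. MRPL18, with 1375 exon bases, had 942 to 1152 reads and averaged 50.1 FPKM. The median over the 49 large subunit genes was 19.2 FPKM, and over the 28 tested small subunit genes it was 16.3 FPKM, against 6.24 FPKM over all tested genes. Members classed as having a bacterial counterpart had higher medians than those classed as mitochondria-specific in both subunits. The medians were 23.5 FPKM (n = 29) against 12.5 FPKM (n = 20) in the large subunit. In the small subunit they were 19.8 FPKM (n = 15, without the untested MRPS24) against 15.01 FPKM (n = 13). The latter class held MRPS18A and MRPS18B, which are related to bacterial S18, and MRPS36, which is not of the ribosome. Both classes held members whose levels are uncertain (below). These were MRPL38, MRPL46 and MRPL53 among the mitochondria-specific ones and MRPL12, MRPL30, MRPS17 and MRPS28 among the others. Many neighbours in the order of levels could not be separated. In 44 of the 48 neighbouring pairs of the large subunit, and in 18 of the 28 of the small subunit, the ranges over the 6 libraries overlapped.

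In the large subunit the highest level belonged to MRPL3 (ENSG00000114686, chr3:131462212-131502983), whose bacterial counterpart reaches towards the peptidyl transferase centre. It had 66.6, 73.8 and 71.0 FPKM after ITGB4 siRNA and 65.3, 77.9 and 69.7 FPKM after control siRNA. MRPL37, a mitochondria-specific protein, had 62.5, 64.6 and 65.2 FPKM after ITGB4 siRNA and 70.1, 60.4 and 65.2 FPKM after control siRNA. MRPL51, also mitochondria-specific, had 62.7, 62.6 and 67.4 FPKM after ITGB4 siRNA and 71.4, 62.0 and 59.2 FPKM after control siRNA. For all 3 genes the highest and the lowest of the 6 values both came from control libraries. MRPL12, the counterpart of the bacterial stalk protein that contacts translation factors, had 60.2, 58.6 and 55.5 FPKM after ITGB4 siRNA and 58.7, 45.9 and 58.5 FPKM after control siRNA, with control replicate 2 alone low. At the other end stood MRPL38 with 1.18, 1.18 and 0.859 FPKM after ITGB4 siRNA and 0.830, 0.976 and 1.20 FPKM after control siRNA, and MRPL46 with 1.48, 1.36 and 1.23 FPKM after ITGB4 siRNA and 0.988, 1.33 and 1.30 FPKM after control siRNA. Both are mitochondria-specific, and their groups overlapped. MRPL42 and MRPL53 averaged 3.65 FPKM each over the 6 libraries.

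MRPS34 (ENSG00000074071, chr16:1771890-1773155), a mitochondria-specific protein needed for a stable small subunit, had the highest level of the 78. It had 102.1, 98.2 and 95.6 FPKM after ITGB4 siRNA and 108.7, 90.4 and 95.9 FPKM after control siRNA, above every other member in all 6 libraries. The next was MRPS26, likewise mitochondria-specific, with 55.9, 53.1 and 58.9 FPKM after ITGB4 siRNA and 70.3, 52.6 and 58.1 FPKM after control siRNA. Control replicate 1 alone was high for MRPS26, and the order among MRPS26, MRPS2 and MRPS6 changed between libraries. The lowest were MRPS18C, MRPS28, MRPS17 and MRPS24. MRPS17 had 1.87, 3.37 and 2.62 FPKM after ITGB4 siRNA and 2.60, 3.13 and 2.46 FPKM after control siRNA, and MRPS24 had 0.138, 0.301 and 0.0737 FPKM after ITGB4 siRNA and 0.0776, 0.207 and 0.126 FPKM after control siRNA. MRPS24 (ENSG00000062582, chr7:43866558-43869893), the counterpart of a bacterial protein at the messenger RNA entry, thus rested on 5, 12 and 3 reads after ITGB4 siRNA and 3, 8 and 5 reads after control siRNA, too few for a comparison.

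**Figure D1:**
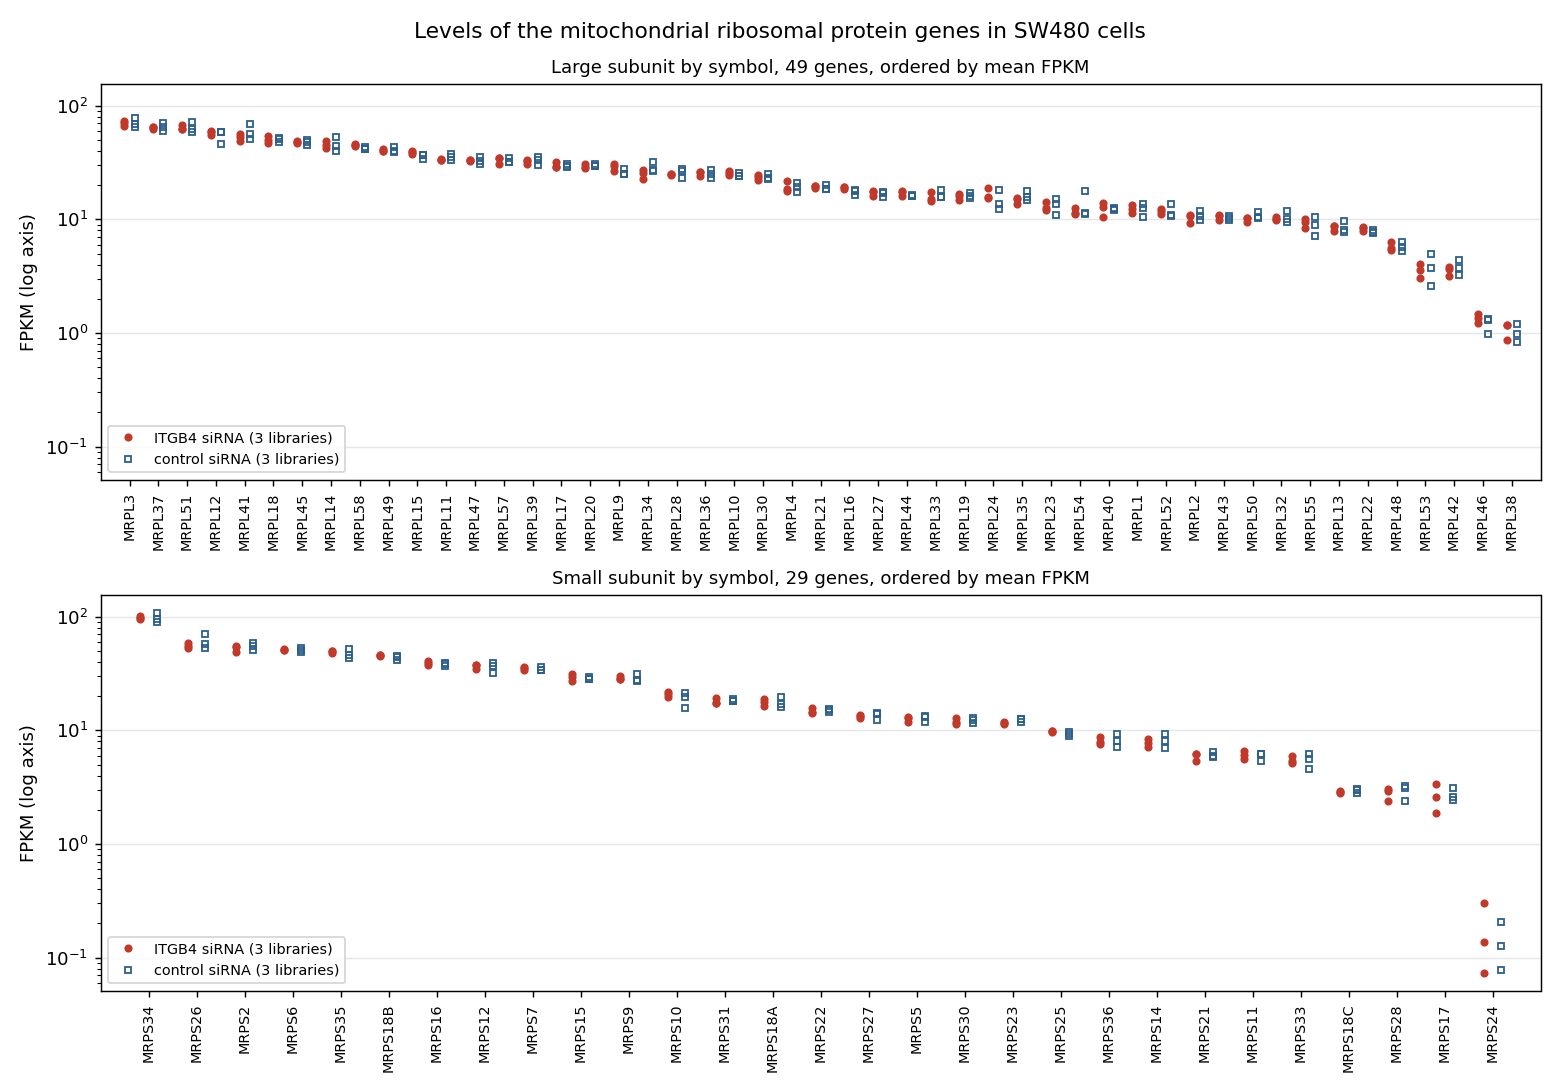
FPKM (log axis) of each of the 49 large subunit genes (top) and 29 small subunit genes (bottom), ordered by mean, with 1 point per library, filled circles for ITGB4 siRNA and open squares for control siRNA (3 libraries each). Points of both groups lie over each other along the whole order, MRPS34 stands above the rest at 90.4 to 108.7 FPKM, and MRPS24 lies far below at 0.0737 to 0.301 FPKM.

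Most of the lowest members share coding sequence with another gene. In the GENCODE 29 annotation, whose gene lengths match those of the table, 8 members have at least 50% of their coding bases inside exons of another gene on the same strand. Of the 8 members under 5 FPKM, 6 were among these: MRPS24, MRPL38, MRPL46, MRPS17, MRPS28 and MRPL53. The median of the 8 sharing members was 2.76 FPKM, against 18.2 FPKM for the 66 members that share no coding base in this way. For MRPS24, 92.2% of the coding bases lie in the read-through gene URGCP-MRPS24, and for MRPL38 94.1% lie in AC087289.3. For MRPS17 the share is 100% with AC092647.5, and for MRPL53 it is 100% with CCDC142. The sharing genes were themselves low: URGCP-MRPS24 was listed at 0 in all 3 ITGB4 siRNA libraries and in 2 of the control libraries, AC087289.3 averaged 0.0293 FPKM and CCDC142 3.70 FPKM. Sharing did not always go with a low level, since MRPL12 shares 96.0% of its coding bases and averaged 56.2 FPKM, and MRPL30 shares 95.3% and averaged 23.5 FPKM. How reads in shared exons were assigned is not given in the sources used here, and its part in these levels was not tested. The levels of these 8 genes are therefore uncertain. The remaining low members were MRPS18C and MRPL42, the latter with the long gene length given above. For MRPS18C, 40.2% of the exon bases lie opposite to exons of ABRAXAS1, so without strand the reads of these genes cannot be told apart there. The same limit holds for higher members, such as MRPS18A (47.0%, 17.6 FPKM) and MRPL51 (31.3%, 64.2 FPKM). The part of opposite exons in these levels was not tested.

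**Figure D2:**
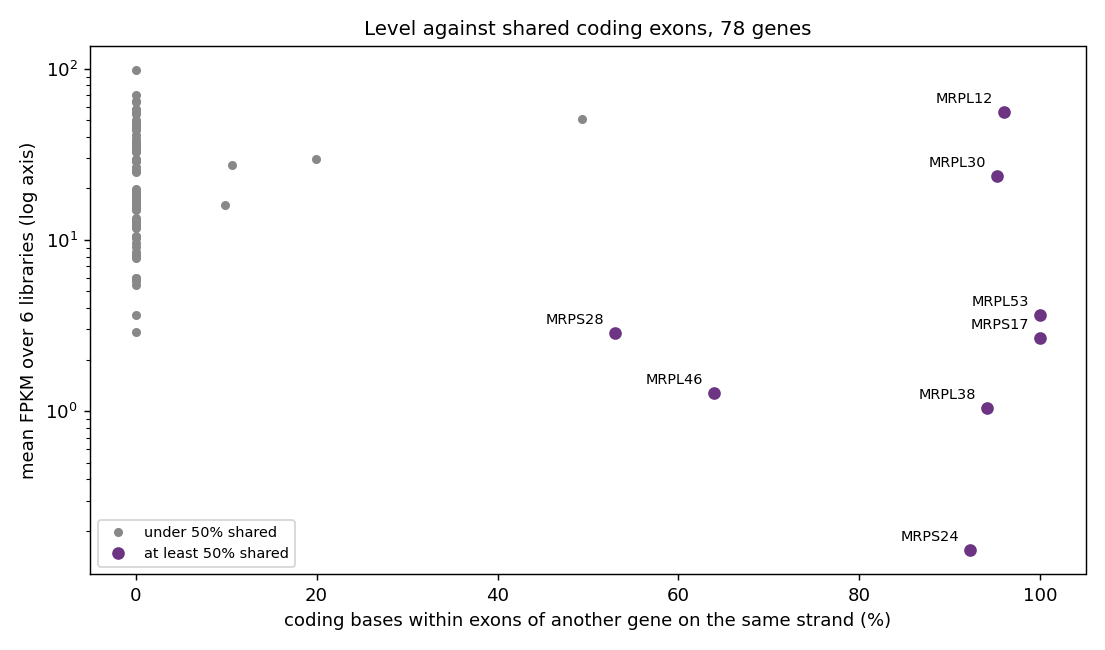
Mean FPKM over the 6 libraries (log axis) against the percent of a member's coding bases that lie in exons of another gene on the same strand, 1 point per gene for 78 genes, with the 8 genes at 50% or more named. Most members sit at 0%, 6 of the 8 named genes lie under 5 FPKM, and MRPL12 and MRPL30 lie among the rest.

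Against this spread of levels, the siRNA comparison of the members was narrow. Over all 12871 tested genes, limma called 6 (0.0466%) changed at an adjusted p under 0.05, and it called 0 of the 77 tested members, the smallest adjusted p among them being 0.852. At an unadjusted p under 0.05 there was 1 member, MRPL58 (1 of 77), against 5.83% of all tested genes, and limma-voom on reads recovered from the FPKM called 0 members, with 0 at an unadjusted p under 0.05, against 5.82% of all tested genes. In the limma fit of log2(FPKM + 1), 4 members had an unadjusted p under 0.05 without control replicate 1, against 10.2% of all tested genes. Without control replicate 2 there were 2 such members (851 of the 12871 tested genes), and without control replicate 3 there was 1 (523). Without ITGB4 siRNA replicate 1, 2 or 3 there were 0, 0 and 2, against 604, 545 and 581 of the 12871 tested genes. The log2 fold changes of the members ran from -0.19 to 0.18, with 39 above 0 and 38 below and a median of 0.0012. Over all tested genes the median was -0.0034 and the range -1.61 to 1.96. In bulk libraries, fewer cells of a type and less RNA per cell cannot be told apart.

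Both subunits had medians close to 0. The 49 large subunit genes had a median log2 fold change of 0.0035, 27 above 0 and 22 below. The 28 tested small subunit genes had a median of -0.0073, 12 above 0 and 16 below. Leaving out single libraries moved the large subunit median between -0.019 and 0.016 and the small subunit median between -0.016 and 0.010, so neither median kept its sign. When MRPS18A and MRPS30 were counted with the large subunit, where the structure of the human mitochondrial ribosome places them, and MRPS36 was left out, the medians were 0.0027 for 51 genes and -0.0073 for 25 genes. In the large subunit the median was 0.0035 for members with a bacterial counterpart and 0.0029 for mitochondria-specific ones, and in the small subunit it was -0.0073 for both classes.

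The intervals show which sizes of change the data allow on the log2(FPKM + 1) scale. This scale understates the change of low genes, so in FPKM itself the intervals of members such as MRPL38, MRPL53 and MRPS17 are wider. For 65 of the 77 members (84.4%) the whole 95% interval of the fold change on the log2(FPKM + 1) scale lay within 1.25-fold in either direction, and for all 77 it lay within 1.5-fold. Over all tested genes these shares were 67.8% and 91.0%. The 12 members with a wider interval than 1.25-fold were MRPL12, MRPL24, MRPL34, MRPL38, MRPL41, MRPL46, MRPL53, MRPL54, MRPL55, MRPS10, MRPS17 and MRPS26. Members were more abundant than the average tested gene, and their median SE was 0.0691, against 0.0813 over all tested genes.

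**Figure D3:**
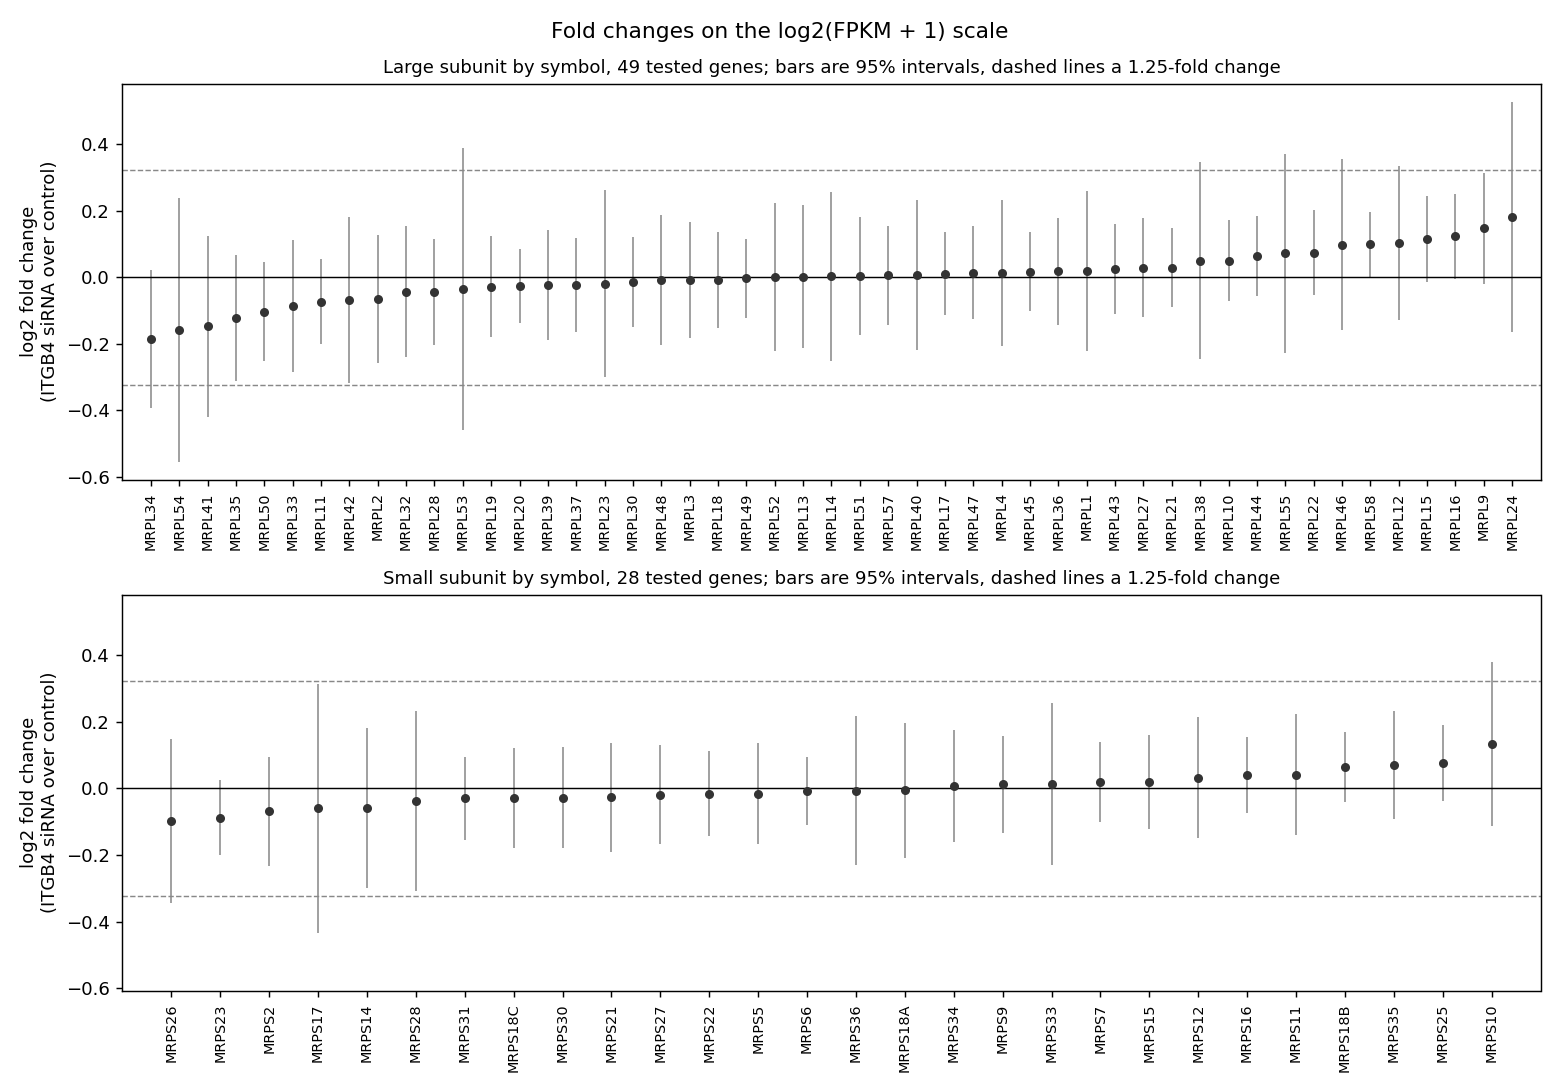
Log2 fold change of ITGB4 siRNA over control siRNA on the log2(FPKM + 1) scale for 49 large subunit genes (top) and 28 small subunit genes (bottom), with bars for 95% intervals (3 libraries per group) and dashed lines at 1.25-fold. Fold changes lie between -0.19 and 0.18, 65 of 77 intervals stay between the dashed lines, and that of MRPL58 alone lies above 0.

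Among the large subunit genes the smallest p-value belonged to MRPL58 (ENSG00000167862, chr17:75012670-75021261), a peptidyl-tRNA hydrolase built into the ribosome that also acts on stalled ribosomes. It had 44.3, 45.4 and 46.1 FPKM after ITGB4 siRNA, against 43.5, 41.6 and 41.5 FPKM after control siRNA. All 3 ITGB4 siRNA libraries stood above all 3 control libraries, with means of 45.3 ± 0.896 FPKM after ITGB4 siRNA and 42.2 ± 1.12 FPKM after control siRNA (SD, n = 3 each). The log2 fold change was 0.099 (SE 0.0413, 95% interval 0.0011 to 0.197), which did not pass (limma adjusted p = 0.852). The exact two-sided permutation test gave 0.1, the smallest p that 3 against 3 libraries allow.

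Complete separation of the groups was found for 5 members in the upward direction (6.49%, against 5.75% of all tested genes) and for 2 in the downward direction (2.60%, against 5.36%). Besides MRPL58, the large subunit held MRPL16 and MRPL15 in the upward direction. MRPL16, whose bacterial counterpart lies near the transfer RNA sites of the large subunit, had 19.4, 19.2 and 18.4 FPKM after ITGB4 siRNA, against 18.1, 16.4 and 17.6 FPKM after control siRNA (log2 fold change 0.12, SE 0.0536, limma adjusted p = 0.859). MRPL15, a counterpart of a bacterial core protein of the large subunit, had 37.4, 40.3 and 39.1 FPKM after ITGB4 siRNA, against 36.9, 37.1 and 33.7 FPKM after control siRNA (log2 fold change 0.12, SE 0.0546, limma adjusted p = 0.920). The gap between the groups was under 1 FPKM in both cases. In the downward direction stood MRPL50, a mitochondria-specific protein, with 10.2, 10.3 and 9.44 FPKM after ITGB4 siRNA, against 10.3, 11.6 and 10.5 FPKM after control siRNA. Its highest ITGB4 siRNA value was 10.25 FPKM and its lowest control value 10.28 FPKM, and the log2 fold change of -0.10 did not pass (limma adjusted p = 0.977).

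The members with the most extreme log2 fold changes overlapped between groups. MRPL34, counterpart of a small bacterial protein, had the lowest at -0.19 (SE 0.0869, limma adjusted p = 0.920), with 22.7, 25.4 and 27.1 FPKM after ITGB4 siRNA, against 31.7, 27.3 and 26.9 FPKM after control siRNA. Control replicate 1 was its highest library and ITGB4 siRNA replicate 1 its lowest. MRPL24, a counterpart of a bacterial protein that starts assembly of the large subunit and named here after its values were seen, had the highest at 0.18, with 15.6, 15.4 and 19.1 FPKM after ITGB4 siRNA, against 18.3, 12.3 and 13.6 FPKM after control siRNA. MRPL9, whose counterpart reaches out from the base of the L1 stalk in bacteria, had 30.6, 29.4 and 26.6 FPKM after ITGB4 siRNA, against 24.8, 25.1 and 27.9 FPKM after control siRNA (log2 fold change 0.15, limma adjusted p = 0.921). ITGB4 siRNA replicate 3 was below control replicate 3 for this gene. MRPL35 was at -0.12, MRPL41 at -0.15, MRPL33 at -0.086 and MRPL11, of the stalk base, at -0.073, all with overlapping groups. Leaving out control replicate 1 moved MRPL41 to -0.026 and MRPL35 to -0.18, and leaving out control replicate 2 moved MRPL41 to -0.25, MRPL35 to -0.051 and MRPL33 to -0.027. MRPL33 was at -0.16 without ITGB4 siRNA replicate 3. MRPL22, whose counterpart lines the exit tunnel, was at 0.075 and MRPL44, which has a ribonuclease III-like fold, at 0.065, also overlapping.

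In the small subunit MRPS18B and MRPS25 stood higher in all 3 ITGB4 siRNA libraries and MRPS23 lower. MRPS18B, 1 of 3 human proteins related to bacterial S18, had 45.5, 45.8 and 45.7 FPKM after ITGB4 siRNA, against 41.7, 45.2 and 44.1 FPKM after control siRNA (log2 fold change 0.064, SE 0.0442, limma adjusted p = 0.998). Its SD was 0.188 FPKM after ITGB4 siRNA, against 1.80 FPKM after control siRNA. MRPS25, a mitochondria-specific protein, had 9.92, 9.87 and 9.72 FPKM after ITGB4 siRNA, against 8.99, 9.24 and 9.62 FPKM after control siRNA (log2 fold change 0.077, SE 0.0477, limma adjusted p = 0.983). MRPS23, also mitochondria-specific, had 11.8, 11.6 and 11.3 FPKM after ITGB4 siRNA, against 12.6, 12.6 and 11.9 FPKM after control siRNA (log2 fold change -0.088, SE 0.0478, limma adjusted p = 0.946). In each of the 3 genes the SD was smaller after ITGB4 siRNA than after control siRNA. The same held for 64.7% of all tested genes. The related proteins MRPS18A and MRPS18C had overlapping groups, with 18.8, 17.6 and 16.3 FPKM after ITGB4 siRNA and 19.7, 16.1 and 17.2 FPKM after control siRNA for MRPS18A, and 2.91, 2.89 and 2.81 FPKM after ITGB4 siRNA and 3.04, 2.98 and 2.82 FPKM after control siRNA for MRPS18C.

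The other small subunit genes named by the smallest p-values all overlapped. MRPS10 had 19.7, 21.7 and 20.8 FPKM after ITGB4 siRNA, against 15.9, 21.3 and 19.7 FPKM after control siRNA, and its log2 fold change of 0.13 was the highest of the small subunit. Control replicate 1 was its single low library, and the log2 fold change was 0.017 without it and 0.22 without control replicate 2. MRPS35 was at 0.071, MRPS16 at 0.040, MRPS11 at 0.041, MRPS2 at -0.069, MRPS14 at -0.058 and MRPS31 at -0.030. Over the alternatives MRPS35 ran from 0.017 to 0.14, MRPS16 from 0.010 to 0.062, MRPS2 from -0.12 to -0.017 and MRPS31 from -0.069 to -0.0069. MRPS26 had the lowest, -0.098, which turned to 0.016 without control replicate 1. MRPS14 likewise turned to 0.029 without control replicate 3, and MRPS11 to -0.0099 without ITGB4 siRNA replicate 3 and to -0.013 without control replicate 1. MRPS30 had 11.3, 12.8 and 11.8 FPKM after ITGB4 siRNA and 11.6, 12.7 and 12.4 FPKM after control siRNA. MRPS36, now known as a subunit of the 2-oxoglutarate dehydrogenase complex and not of the ribosome, had 7.64, 7.96 and 8.69 FPKM after ITGB4 siRNA and 7.11, 9.26 and 8.15 FPKM after control siRNA.

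Summed over the subunit, the values after ITGB4 siRNA lay inside the control range. The large subunit genes summed to 1207, 1216 and 1242 FPKM after ITGB4 siRNA and 1268, 1188 and 1209 FPKM after control siRNA. Small subunit genes summed to 695.1, 694.1 and 697.2 FPKM after ITGB4 siRNA and 713.0, 683.9 and 689.6 FPKM after control siRNA. The means were 1221 ± 18.1 FPKM after ITGB4 siRNA and 1222 ± 41.4 FPKM after control siRNA for the large subunit (SD, n = 3 each). For the small subunit they were 695.5 ± 1.62 FPKM after ITGB4 siRNA and 695.5 ± 15.4 FPKM after control siRNA. The ratio of the large to the small sum was 1.74, 1.75 and 1.78 after ITGB4 siRNA and 1.78, 1.74 and 1.75 after control siRNA. The balance of the subunits thus differed by less than the spread between replicates.

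For most members the control libraries lay further apart than the ITGB4 siRNA libraries. For 33 of the 77 members (42.9%) all 3 ITGB4 siRNA values lay inside the range of the controls, against 30.4% of all tested genes, while the reverse held for 9 members (11.7%), against 12.6%. The SD was larger among the controls for 58 members (75.3%), against 64.7% of all tested genes. Control replicate 1 held the highest value of 24 members (31.2%, against 25.7% of all tested genes) and the lowest of 21 (27.3%, against 23.2%). Control replicate 2 held the highest of 18 (23.4%, against 23.5%) and the lowest of 23 (29.9%, against 23.4%). MRPL54, a mitochondria-specific protein chosen as an example after its values were seen, stood out, with 12.7, 11.4 and 11.1 FPKM after ITGB4 siRNA and 17.8, 11.2 and 11.4 FPKM after control siRNA. MRPL41, also mitochondria-specific, was like it, with 56.9, 48.9 and 52.7 FPKM after ITGB4 siRNA and 69.2, 50.7 and 56.8 FPKM after control siRNA. In both, control replicate 1 alone stood above all other libraries.

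These departures went with base composition. The GC content of the longest transcript ran from 33.5% to 71.9% among the members, with a median of 47.7%. For the 38 members above that median, the median departure from a gene's mean over the 6 libraries, on the log2(FPKM + 1) scale, was 0.017, -0.00093 and 0.018 in the ITGB4 siRNA libraries and 0.084, -0.076 and -0.0071 in the control libraries. For the other 39 it was -0.029, 0.0096 and 0.045 in the ITGB4 siRNA libraries and -0.060, 0.061 and -0.0017 in the control libraries. Controls 1 and 2 thus departed in opposite directions, and each reversed between GC-rich and GC-poor members. Across the 77 members, Spearman's rho between GC content and the difference of a library from the mean of its group's other libraries was 0.608 for control replicate 1 and -0.670 for control replicate 2, against 0.657 and -0.635 across all tested genes. In the ITGB4 siRNA libraries it was 0.304, -0.251 and -0.109, against 0.452, -0.300 and -0.238 across all tested genes. For control replicate 3 it was 0.034, against -0.152. These correlations are across genes that share the same libraries and are given as descriptions. With the log2 values corrected for GC content, an alternative chosen after seeing the data, limma called 0 members, with 6 of 77 at an unadjusted p under 0.05 (MRPL15, MRPL16, MRPL34, MRPL35, MRPL41 and MRPL58). Over all tested genes that share was 10.9% under the same correction, so the count does not set the members apart from the background.

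**Figure D4:**
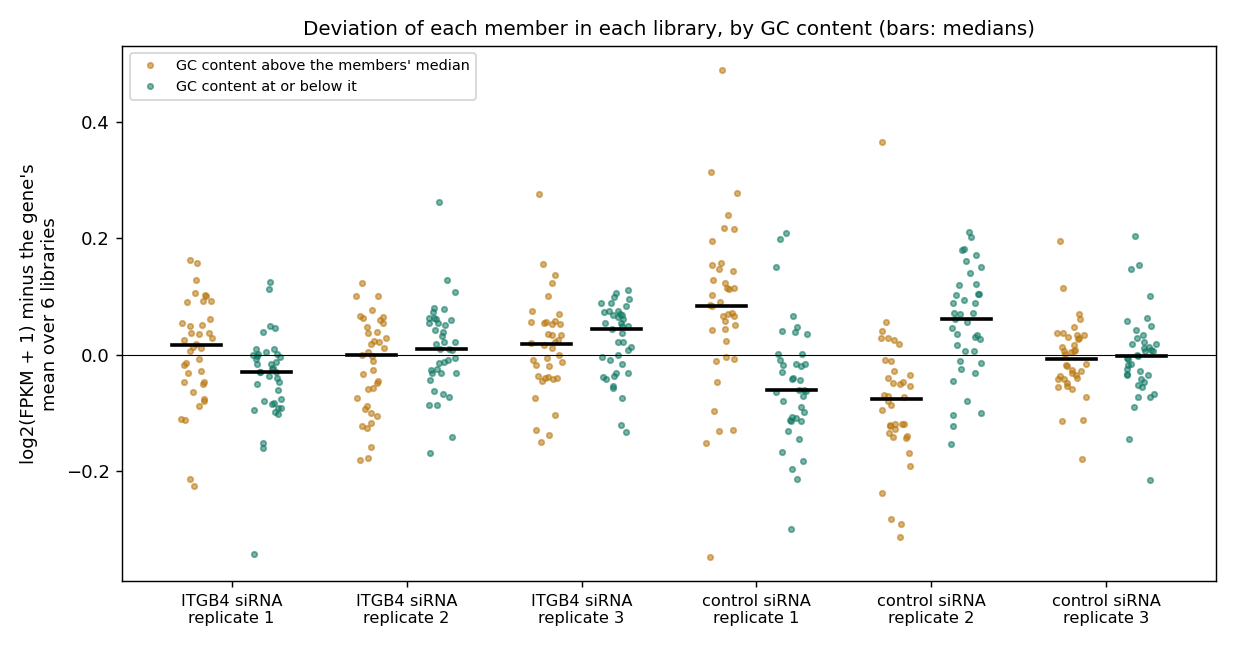
Difference of each tested member from its mean over the 6 libraries on the log2(FPKM + 1) scale, by library, for 38 members with GC content above the members' median and 39 at or below it, with 1 point per gene and bars for medians. The medians of control replicate 1 are 0.084 for GC-rich and -0.060 for GC-poor members, and those of control replicate 2 are -0.076 and 0.061.

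Genes that work with the mitochondrial ribosome were read from the same fit. Of the 5 further ribosomal proteins without an MRP symbol, 1 was above 0 and 4 below, with 0 called by limma and 0 at an unadjusted p under 0.05. PTCD3, a pentatricopeptide repeat protein of the small subunit, had 20.04, 21.9 and 21.6 FPKM after ITGB4 siRNA and 20.7, 23.1 and 22.4 FPKM after control siRNA. The groups of PTCD3 overlapped. Among 16 translation factors, 9 were above 0 and 7 below with 0 called and 0 at an unadjusted p under 0.05. TUFM, the elongation factor that brings transfer RNA to the ribosome, had 114.8, 114.1 and 113.4 FPKM after ITGB4 siRNA and 114.8, 101.8 and 110.5 FPKM after control siRNA. The 13 proteins that the ribosome makes, encoded in the mitochondrial genome, had a median log2 fold change of -0.0026, 6 above 0 and 7 below, with 0 called and 0 at an unadjusted p under 0.05.

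Of 31 assembly and ribosomal RNA processing genes, 16 were above 0 and 15 below and limma called 0, while DDX28 and RCC1L had an unadjusted p under 0.05. A count of 2 of 31 is near the background of 5.83% of all tested genes, and 5.75% of all tested genes were higher without overlap. DDX28, a DEAD-box protein of large subunit assembly, had 9.95, 8.87 and 9.44 FPKM after ITGB4 siRNA, against 8.13, 7.68 and 8.11 FPKM after control siRNA. Its groups did not overlap, and the log2 fold change was 0.21 (SE 0.058, limma adjusted p = 0.606). RCC1L, which also acts in mitochondrial ribosome assembly, had 32.5, 31.8 and 30.7 FPKM after ITGB4 siRNA, against 29.9, 24.6 and 28.3 FPKM after control siRNA, again without overlap (log2 fold change 0.20, limma adjusted p = 0.813). ERAL1, a GTPase that binds the small subunit ribosomal RNA, was lower in 2 of the 3 ITGB4 siRNA libraries than in any control library, with 32.0, 29.3 and 30.6 FPKM after ITGB4 siRNA, against 34.7, 31.6 and 34.4 FPKM after control siRNA (log2 fold change -0.13, limma adjusted p = 0.873).

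Among the 10 tested regulators of nuclear genes for mitochondria, 5 were above 0 and 5 below and limma called 0. TFAM alone (1 of 10) had an unadjusted limma p under 0.05, against 5.83% of all tested genes. TFAM, which packages mitochondrial DNA and starts its transcription, had 17.9, 19.7 and 20.4 FPKM after ITGB4 siRNA, against 20.2, 23.5 and 22.7 FPKM after control siRNA. ITGB4 siRNA replicate 3 lay just above control replicate 1, so the groups overlapped, and the log2 fold change was -0.19 (limma adjusted p = 0.817). GABPA, the DNA-binding subunit of GABP, had 8.54, 8.84 and 9.33 FPKM after ITGB4 siRNA, against 9.04, 11.4 and 10.2 FPKM after control siRNA (log2 fold change -0.18, limma adjusted p = 0.920), also with overlap. NRF1 was at -0.054 and YY1 at -0.013. None of these differences passed the test.

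Copies of the members elsewhere in the genome took few reads. Besides the 78 members, 77 rows carried an MRP symbol, 75 of them pseudogenes and 2 antisense genes. Of the pseudogenes, 54 were listed at 0 in every library and only MRPL45P2 and MRPS31P4 reached a mean of 1 FPKM, at 1.95 and 1.46 FPKM. Together the 75 held 925 reads over the 6 libraries, 0.230% of the 401906 reads of the members. Reads of MRPL45 and MRPS31 that fit these copies equally well could have been split between them, and how such reads were counted is not given in the sources used here.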

How the data were processed

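The values are FPKM per gene, which the authors computed for 6 libraries and deposited with the gene length they used; the submitters' processing notes name the build GRCh38 and the tools DESeq2 and edgeR without a role, and the aligner, counting rule and strandedness are not given in the sources used here. FPKM times length, divided by the value of 1 read, gave whole numbers for 100% of values at a tolerance of 0.01, so reads could be recovered.

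From the deposited FPKM, a limma-trend model of log2(FPKM + 1) was computed (limma 3.58.1, R 4.3.3, two-sided, all 6 libraries) for genes with a mean of at least 1 FPKM, with Benjamini-Hochberg adjustment over all 12871 and a call at an adjusted p under 0.05. Adding 1 understates the change of low genes. Single genes also had an exact permutation test. Groups came from the sample titles. How much of the spread between libraries is counting error was not computed. The fit was also run on simulated data with independent noise for each gene and changes of at least 1.5-fold. That simulation held no GC-linked shifts of libraries and no changes as small as those of the members. Coordinates and exon overlaps are from GENCODE 29, whose gene starts, ends and lengths match the table, and promoters are from RefSeq.

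Members and lists were chosen with earlier results of these data known. Named genes were, per subunit, the 6 with the smallest p in each direction and the 4 highest and 4 lowest by level, the MRPS18 family, MRPS30 and MRPS36, and up to 3 per related list. Alternatives changed the pseudocount, the filter, the scaling, the tool, the subunit assignment, a replicate block, single libraries and, added after seeing the data, GC content and shared coding exons.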

Additional observations from a re-analysis of the deposited data

How the results depend on the processing

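Of the 77 tested members, limma called 0 under every alternative that was run, and the smallest adjusted p of a named member over all of them was 0.275 (MRPL41, with GC correction). Over all genes, the count of 6 became 0 with no filter on low values (1356 at an unadjusted p under 0.05), 0 with a replicate block (1064), 26 with limma-voom on recovered reads (749), 49 with GC correction (1399, chosen after seeing the data) and 0 to 7 when each library was left out. ITGB4 kept its direction but lost its call with no filter (-0.81, limma adjusted p = 0.0618), with the replicate block (-0.81, limma adjusted p = 0.0564) and without any ITGB4 siRNA library or control replicate 3 (-0.85 to -0.79). The full range with each library left out was -0.87 to -0.76, and both ends, without control replicates 2 and 1, kept the call. Whether the numbers pair the libraries was not settled. Same-numbered libraries correlated at 0.173, 0.102 and -0.010, and numbers 1 and 2 matched their own number best while number 3 did not. The main fit therefore used no block. With each library left out in turn, the log2 fold change ran from -0.013 to 0.092 for MRPS11, from -0.19 to 0.016 for MRPS26, from -0.15 to 0.029 for MRPS14, from -0.040 to 0.088 for GADD45GIP1, from -0.12 to 0.028 for CHCHD1, from -0.19 to 0.0094 for MT-ND3 and from -0.12 to 0.0039 for MT-ND5, and the cause was not tested. Another 331 fold changes of named members over the alternatives and 203 of related genes kept their direction and their side of the threshold, although single libraries moved several by over 1.5 times. The large and small subunit medians turned sign in several of these settings while moving by less than their spread between libraries. All size factors were equal at 1.003, so the deposited FPKM were already on a median-of-ratios scale. Rescaling by median-of-ratios was therefore bound to change nothing visible and is no separate check. At this depth MRPS24, with 3 to 12 reads a library, allows no comparison.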
